A study of Mus musculus with 12 samples.

Results

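The response of osteocytes to FG-4592 was described from 6 of the 12 RNAseq libraries of the series, 3 of vehicle-treated and 3 of FG-4592-treated osteocytes, across 16484 of 56350 genes, those whose count passed 10 in 3 or more of the 12. The cells were MPC2 cells, a mouse mesenchymal line that is conditionally immortalized and is 1 clone, so that every library carries the same genetic background. Osteocytes were MPC2 cells kept at 37 °C for 3 weeks in medium with beta-glycerophosphate and ascorbic acid, and they were exposed for 48 hours to DMSO (vehicle) or to 50 μmol/L FG-4592. The other 6 libraries were undifferentiated MSCs of the same line, grown at 33 °C and given the same 2 treatments. They share with the osteocytes the filter on low counts and one estimate of the spread, and they serve to test where the response of the osteocytes differed. Because temperature, medium and differentiation changed together, these cannot be told apart in a difference between the cell types. The labels name no separate cultures for the replicates, so p-values measure the spread between these libraries, which may be technical.

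FG-4592 (roxadustat) inhibits the HIF-prolyl hydroxylases, the oxygen- and iron-dependent enzymes encoded by Egln1, Egln2 and Egln3. These enzymes mark the alpha subunits of the hypoxia-inducible factors for capture by the VHL ubiquitin ligase and for degradation. When they are blocked, HIF-1α (Hif1a) and HIF-2α (Epas1) accumulate as proteins, pair with ARNT and bind hypoxia response elements, DNA sites with the core letters ACGTG or GCGTG. Classical targets encode glucose transport, glycolysis, vessel growth and the hydroxylases themselves. In bone, osteocytes are cells buried in mineralized matrix that secrete the phosphate hormone FGF23 and set the balance of bone formation and resorption.

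Osteocyte totals ranged from 54328728 to 68108470 counts. A gene's level is given as CPM, the count over the TMM-scaled library total, in parts per 1e6. A count of 0 in a library allows up to 3 counts, or 0.0452 to 0.0539 CPM in vehicle and 0.0462 to 0.0495 CPM in FG-4592, and such limits cover counting error only. Log2 fold changes are FG-4592 against vehicle with the SE of the fit, and adjusted p-values come from the edgeR quasi-likelihood test, adjusted by Benjamini-Hochberg across the genes tested. A gene rose or fell where the absolute log2 fold change was above 1 and the adjusted p was under 0.05. For 1 gene taken alone, 3 libraries against 3 allow no two-sided p below 0.1 in an exact permutation test. In bulk RNA, fewer cells of a type and less RNA per cell cannot be told apart.

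The label was set against marker genes. Col1a1 (2460 to 2938 CPM in vehicle), Spp1 and Sparc were high, and Runx2 (181 to 197 CPM), Sp7 (87.3 to 94.4 CPM), Phex (50.6 to 63 CPM) and Dmp1 (9.12 to 13.7 CPM) were present. The late osteocyte genes were not: Sost had 0 counts in every library, which in vehicle-treated osteocytes allows up to 0.0163 CPM over the group, and Mepe had 0 counts in every osteocyte library. Pdpn had 1 count in 1 library, but its symbol is also carried by a second entry on an extra scaffold, so that reads matching both would be lost as not unique. Adipocyte markers were high in the osteocyte cultures. Adipoq stood at 1193, 1487 and 1730 CPM in vehicle and 1385, 1250 and 1482 CPM in FG-4592, and Plin1 at 244 to 318 and 302 to 347 CPM. The summed level of the adipocyte list overlapped between the treatments, at 2062 to 2693 CPM in vehicle and 2298 to 2711 CPM in FG-4592, and of its 7 tested members (of 8) 1 rose, Fabp4 (log2 fold change 1.19 ± 0.12, adjusted p = 6.83e-07). Lep was at 0 or 1 count. Endothelial and blood markers summed to at most 3.78 and 1.43 CPM in any osteocyte library, with Cdh5, Kdr, Emcn and the hemoglobin genes at 0 or 1 count. Muscle markers summed to 8.58 CPM at most, mainly Des. The chondrocyte list, of which 2 of 6 members were tested, summed to 53.6 to 72.8 CPM in vehicle and 244 to 334 CPM in FG-4592, nearly all of it Col2a1. Of the osteoblast and osteocyte list 9 of 12 members were tested, and 4 fell (Phex, Dmp1, Ibsp and Bglap) and 1 rose (Fgf23), with a median log2 fold change of -0.83. The part of fat-like cells in the results below was not tested.

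In all, 1030 genes rose (6.25% of the genes tested) and 702 fell (4.26%), 10.5% together. These shares are the background for the counts of list members below. The rises were larger. Of the genes that rose, 504 did so by more than 2, 271 by more than 3 and 68 by more than 5 on the log2 scale, with a median of 1.95, or 1.94 with the 26 genes that had no count in vehicle set at their lower bound. Of those that fell, 161 lay beyond -2, 48 beyond -3 and 2 beyond -5, with a median of -1.44. A further 5496 genes passed the adjusted p but not the size cutoff, and 51.8% of all genes tested did not overlap between the treatments.

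Genes that rose had low vehicle levels, in part because the vehicle level is the denominator of the change that called them. Their median vehicle level was 0.831 CPM, against 5.24 CPM for genes that fell and 14.3 CPM for all genes tested. Among the 4121 genes lowest in vehicle, up to 0.851 CPM, 12.6% rose and 2.98% fell, and among the 4121 highest, from 53.6 CPM, 3.23% rose and 2.43% fell. The risen genes took 4.49% to 4.62% of the CPM of the vehicle libraries and 13.9% to 14.3% of the FG-4592 libraries. The fallen genes went from between 4.20% and 4.38% to between 1.34% and 1.47%. These shares describe genes chosen on the same libraries. On the X chromosome 2.68% of genes rose, and on the 19 autosomes between 5.16% and 7.35%.

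**Figure D1:**
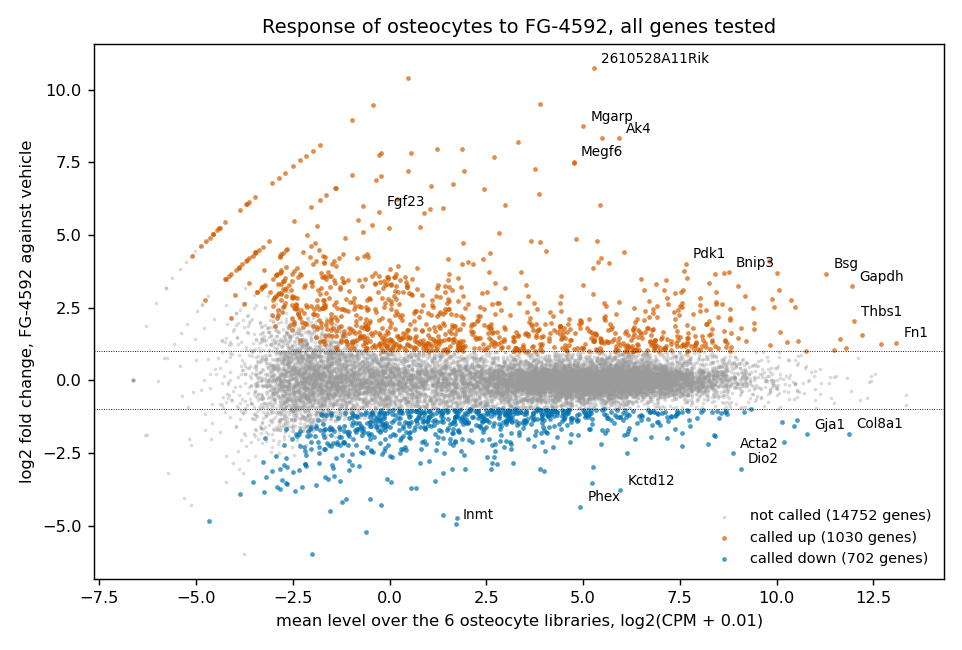
Each point is 1 of the 16484 genes tested, with the mean level over the 6 osteocyte libraries on the x axis as log2(CPM + 0.01) and the log2 fold change of FG-4592 against vehicle on the y axis. Genes that rose (orange, 1030) spread to larger changes than genes that fell (blue, 702), and dotted lines mark the size cutoff of 1 in each direction.

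The promoters of 6 genes that rose are shown as examples of windows that hold the core letters. They encode the hydroxylase PHD3 (Egln3), the mitophagy receptor BNIP3, the glucose transporter GLUT1 (Slc2a1), the mitochondrial gatekeeper pyruvate dehydrogenase kinase 1 (Pdk1), phosphoglycerate kinase (Pgk1) and the mitochondrial adenylate kinase 4 (Ak4). Each run is the sense strand from 250 bases before to 50 bases after the RefSeq start in GRCm38.p6 (mm10), 5′ to 3′, and capitals mark ACGTG or GCGTG on either strand, so that CACGT and CACGC are the same letters read from the other strand and CACGTG is a match on both strands.
Egln3, chr12:54203825-54204124, minus strand: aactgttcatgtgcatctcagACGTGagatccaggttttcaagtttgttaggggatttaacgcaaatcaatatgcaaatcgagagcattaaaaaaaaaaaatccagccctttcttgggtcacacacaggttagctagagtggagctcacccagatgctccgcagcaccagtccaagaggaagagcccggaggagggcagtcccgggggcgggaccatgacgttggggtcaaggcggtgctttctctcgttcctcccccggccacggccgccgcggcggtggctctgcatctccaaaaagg
Bnip3, chr7:138909457-138909756, minus strand: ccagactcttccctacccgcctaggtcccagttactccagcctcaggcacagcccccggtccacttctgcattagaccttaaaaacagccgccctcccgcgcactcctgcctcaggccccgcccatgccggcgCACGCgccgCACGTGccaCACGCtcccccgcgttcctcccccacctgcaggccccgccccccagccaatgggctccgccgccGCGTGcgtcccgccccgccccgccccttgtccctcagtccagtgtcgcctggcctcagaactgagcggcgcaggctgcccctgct
Slc2a1, chr4:119108495-119108794, plus strand: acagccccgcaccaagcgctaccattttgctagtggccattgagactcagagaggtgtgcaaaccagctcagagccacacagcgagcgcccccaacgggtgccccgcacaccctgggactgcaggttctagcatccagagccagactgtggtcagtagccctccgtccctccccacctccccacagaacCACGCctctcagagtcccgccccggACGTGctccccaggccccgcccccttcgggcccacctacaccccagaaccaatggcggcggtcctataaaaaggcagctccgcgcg
Pdk1, chr2:71872974-71873273, plus strand: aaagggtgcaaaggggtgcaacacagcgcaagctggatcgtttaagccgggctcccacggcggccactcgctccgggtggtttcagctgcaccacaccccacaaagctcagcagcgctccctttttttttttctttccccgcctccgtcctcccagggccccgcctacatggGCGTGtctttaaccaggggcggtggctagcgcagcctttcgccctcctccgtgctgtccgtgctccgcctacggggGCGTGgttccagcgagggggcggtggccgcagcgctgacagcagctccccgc
Pgk1, chrX:106186850-106187149, plus strand: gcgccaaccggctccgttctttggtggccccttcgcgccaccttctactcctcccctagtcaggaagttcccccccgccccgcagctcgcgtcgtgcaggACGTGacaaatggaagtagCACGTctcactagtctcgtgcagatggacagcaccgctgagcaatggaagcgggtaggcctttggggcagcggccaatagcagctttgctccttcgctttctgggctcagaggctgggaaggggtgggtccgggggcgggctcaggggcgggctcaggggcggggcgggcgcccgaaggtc
Ak4, chr4:101419039-101419338, plus strand: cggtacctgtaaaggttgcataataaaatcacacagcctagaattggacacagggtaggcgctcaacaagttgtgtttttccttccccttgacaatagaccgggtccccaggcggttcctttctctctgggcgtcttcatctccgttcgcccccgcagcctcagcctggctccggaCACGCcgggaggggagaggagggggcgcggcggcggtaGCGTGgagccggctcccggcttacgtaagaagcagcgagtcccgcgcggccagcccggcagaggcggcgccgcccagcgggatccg
A window of this kind was found for 10925 of the genes tested (66.3%). Of these, 61.8% held at least 1 match to ACGTG or GCGTG, and 25.2% held ACGTG, so that a match is common among all promoters. The Pgk1, Slc2a1, Pdk1 and Ak4 windows held 2 matches each, the Bnip3 window 5 and the Egln3 window 1. A match is a description of the letters and not a measured binding site. Of the 10925 windows, 7405 lay within 50 bases of the 5′ end of the counted gene, and the others may mark another start. Windows without a match included those of Pkm, Gpi1, Tpi1, Vhl, Mxi1, Vegfa and Apln, which also rose. Of the tested members with a window, 12 of 18 glycolysis genes, 7 of 11 HIF regulators and 14 of 15 other HIF targets held a match. Of the genes that rose 59.6% of 597 windows held one, and of the genes that fell 51.9% of 480. Because only 58.0% of the genes that rose and 68.4% of those that fell had a window, under the 80% required here, these shares are given without a comparison.

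Among regulators of the HIF pathway, 7 of 13 tested rose and 1 fell, with a median log2 fold change of 1.08, against 0.00154 for all genes tested. The 2 inducible hydroxylases rose most. Egln3 went from 0.497, 0 and 0.179 CPM in vehicle to 14.9, 17.2 and 14.5 CPM (log2 fold change 6.03 ± 0.47, adjusted p = 1.16e-07), and without vehicle replicate 1 the fold change was 7.33. Egln1, the main oxygen sensor PHD2, went from 78.7, 75.8 and 72.5 to 591, 626 and 645 CPM (3.04 ± 0.05, adjusted p = 2.62e-16). No treated library of either gene overlapped a vehicle library, as was so for 26.1% of all genes in this direction. Egln2 (PHD1) stayed at 37.8 to 47.6 against 46.9 to 51.7 CPM, with an adjusted p of 0.113.

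The transcripts of the HIF subunits themselves moved little. Hif1a read 250 to 283 CPM in vehicle and 179 to 193 CPM in FG-4592 (-0.49 ± 0.05, adjusted p = 8.43e-07), and Epas1 656 to 737 and 763 to 851 CPM (0.21 ± 0.05, adjusted p = 0.00471), both within the size cutoff. Arnt, their partner, read 106 to 113 and 92.3 to 105 CPM (adjusted p = 0.0658). Arnt2, a second partner subunit at low level, fell from 3.89 to 4.97 to between 1.21 and 1.44 CPM (-1.71 ± 0.25, adjusted p = 2.96e-05). Vhl rose by 1.08 ± 0.06, Cited2, which competes with HIF for the coactivator p300, by 2.29 ± 0.06, and the repressors Bhlhe40, Bhlhe41 and Mxi1 by 2.37, 1.16 and 2.45. With library size alone as the scaling, Vhl read 0.98 and no longer passed the size cutoff. The factor inhibiting HIF, Hif1an, read 0.41 ± 0.06.

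Of 19 other HIF targets tested, 14 rose and 1 fell, with a median of 1.73. The largest rise was that of Ak4, from 0.813, 0.27 and 0 CPM to 120, 125 and 119 CPM (8.33 ± 0.30, adjusted p = 1.61e-12). All treated libraries lay over 100 CPM whereas no vehicle library reached 1 CPM, and the fold change was 7.72 without vehicle replicate 3. Ankrd37, an ankyrin repeat protein, rose by 7.26 ± 0.19, and Car9, the extracellular carbonic anhydrase of acid handling, by 5.27 ± 0.77. The change of Car9 was 4.68 without vehicle replicate 3. Without vehicle replicate 1, which held all of its vehicle counts, the fit read 10.68, a value with no vehicle count behind it.

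The mitophagy receptors Bnip3 and Bnip3l rose together, Bnip3 from 66.7, 56.3 and 60.5 to 802, 871 and 756 CPM (3.73 ± 0.08, adjusted p = 6.21e-15) and Bnip3l by 1.70 ± 0.05. Ero1l, the oxidase of disulfide formation in the endoplasmic reticulum, rose by 3.68, the stress protein Ndrg1 by 3.30 and the cytokine Mif by 3.45. Pfkfb3, which makes the glycolytic activator fructose-2,6-bisphosphate and is a common HIF target, went the other way, from 104, 111 and 114 to 31, 27.6 and 31.9 CPM (-1.86 ± 0.08, adjusted p = 1.18e-11). Its relative Pfkfb4 read 0.81 ± 0.13. Ankrd37, Bnip3, Car9, Fam162a, Higd1a and Ndrg1 share exonic bases with other genes, and reads there count for both.

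Glucose uptake and glycolysis had 16 of 18 tested genes up, none down and a median of 2.69. Slc2a1 went from 15.3, 13.1 and 15.8 to 165, 170 and 165 CPM (3.50 ± 0.06, adjusted p = 5.19e-16). Hexokinase 2 (Hk2) rose by 1.77 ± 0.09 and the liver-type phosphofructokinase Pfkl by 3.66 ± 0.07. Pfkm, the muscle-type subunit, read 0.49 ± 0.05 and Eno2, the neuronal enolase, -0.78 ± 0.17 (adjusted p = 0.00109), the 2 members that did not rise.

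Pgk1 went from 151, 143 and 148 to 1911, 1888 and 1922 CPM, 13-fold by the means (3.70 ± 0.04, adjusted p = 1.15e-17). Lactate dehydrogenase A (Ldha), which turns pyruvate into lactate, went from 356, 320 and 347 to 2276, 2301 and 2291 CPM (2.75 ± 0.05, adjusted p = 2.65e-16). Pdk1, which shuts pyruvate out of the citric acid cycle, had the largest change of the list, from 26.3, 21.8 and 22.4 to 381, 391 and 366 CPM (4.01 ± 0.07, adjusted p = 2.65e-16). The lactate exporter Slc16a3 rose by 2.89 ± 0.95 (adjusted p = 0.0206) at 0.182 to 0.262 CPM. That last call was lost without vehicle replicate 3 (adjusted p = 0.0651) or FG-4592 replicate 2 (adjusted p = 0.0535), and with no filter on low counts (adjusted p = 0.0755). The summed level of the list went from 3049 to 3189 CPM in vehicle to 22592 to 22993 CPM in FG-4592.

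Processed pseudogenes are intronless copies of messenger RNAs. Of 1172 tested, 107 rose (9.13%) and 20 fell (1.71%). Of the 107, 102 matched a protein-coding transcript at 90% identity or more, with a median of 98.2%, and 92 matched a gene that itself rose: 52 matched Gapdh, 12 the Gapdh-like gene Gm10358, 4 Ldha, and 3 each Mif, Pgk1 and Pkm. None matched a gene that fell. Of the 20, 19 had a match, 5 to a gene that also fell and 1 to a gene that rose. Whether these copies are transcribed or hold reads of their parents was not tested, and without processed pseudogenes in the test the genes that rose numbered 908.

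**Figure D2:**
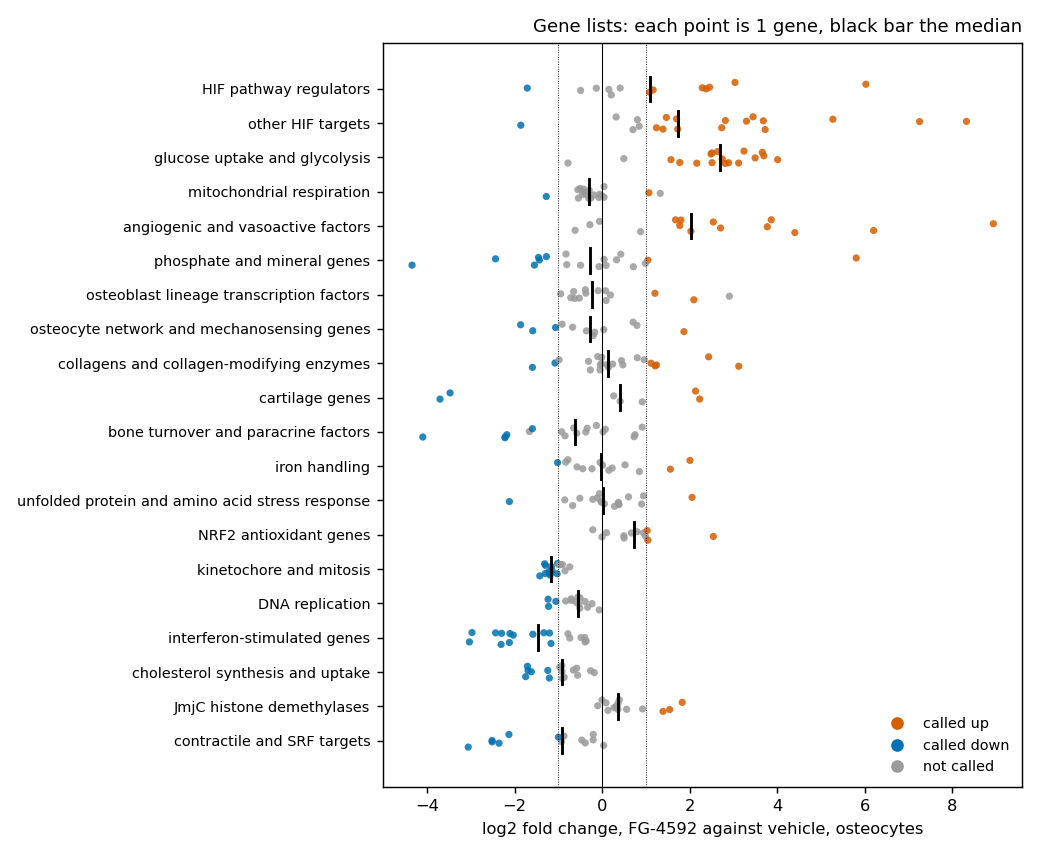
Each point is 1 tested gene of 1 of 20 gene lists, at its log2 fold change of FG-4592 against vehicle in osteocytes, with black bars at the list medians and dotted lines at the size cutoff of 1. The glycolysis list has its median at 2.69 and the interferon-stimulated list at -1.46, whereas the osteoblast transcription factors lie around -0.23.

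Mitochondrial respiration genes of the nuclear genome read slightly lower. Of 20 tested, 1 rose and 1 fell, against 6.25% and 4.26% of all genes tested, with a median of -0.30. At an adjusted p under 0.05, 12 read lower and 1 higher, against 22% and 21.9% of all genes tested. Ndufa4, a cytochrome oxidase subunit, fell from 57.5, 104 and 102 to 34.4, 33.7 and 40.5 CPM (-1.28 ± 0.18, adjusted p = 2.95e-05). Lonp1, the matrix protease that HIF is known to induce, rose from 87.3 to 90.2 to between 185 and 189 CPM (1.07 ± 0.05), or by 0.97 with library size alone. Citrate synthase (Cs) read -0.56 ± 0.04 and Sdha -0.38 ± 0.04. The 13 protein-coding genes of the mitochondrial chromosome, chosen after their values were seen, had fitted changes from -0.87 (mt-Nd6) to -0.48, 10 of them at an adjusted p under 0.05 and none past the size cutoff. Mitochondrial transcripts took 3.30% to 3.74% of vehicle and 2.15% to 2.18% of FG-4592 libraries.

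Of 15 angiogenic and vasoactive factors tested, 11 rose and none fell, with a median of 2.03. Besides the growth factor Vegfa (2.71 ± 0.06), apelin (Apln), a peptide that acts on vessels, went from 4.58, 4.8 and 5.24 to 72.6, 73.3 and 67.1 CPM (3.87 ± 0.09, adjusted p = 5.69e-15). No treated library lay below 10 times the highest vehicle library.

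Angptl4, the lipoprotein lipase inhibitor, rose by 3.77 ± 0.09 and placental growth factor (Pgf) by 1.80 ± 0.11. Nitric oxide synthase 2 (Nos2) had no count in vehicle and 0.726 to 1.34 CPM in FG-4592, at least 60.9-fold higher with 3 counts allowed over the vehicle group. Adrenomedullin (Adm), a vasodilator peptide, had 1 count in all of vehicle and 16 to 49 counts per treated library, a ratio of 100.3 with a 95% counting interval from 17.6 to 3999, and its fitted change of 6.21 read 8.07 without vehicle replicate 1. Angpt1, which steadies vessels, read lower (-0.62 ± 0.06, adjusted p = 2.19e-07).

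The 12 largest rises were taken among called genes with at least 100 mean counts in the higher group and no overlap. The protein-coding gene 2610528A11Rik went from 0.0753, 0.0539 and 0 to 64.4, 93.2 and 75.8 CPM (10.74 ± 0.30, adjusted p = 7.02e-14). The proteinase inhibitor A2m went from at most 0.0602 to 24.7, 28.1 and 35 CPM (9.51 ± 0.31, adjusted p = 8.72e-12), and Mgarp, a mitochondrial protein of the hypoxia response, from at most 0.196 to 56.1, 72.5 and 62.5 CPM (8.74 ± 0.26, adjusted p = 1.39e-13). None of the 3 reached 0.2 CPM in any vehicle library.

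Ak4 came next, and then Gpr35, a G protein-coupled receptor (8.33 ± 0.22, 87.2 to 91.6 CPM in FG-4592). The potassium channel subunit Dpp6 (8.21 ± 0.33) and liver glycogen phosphorylase Pygl (7.97 ± 0.57) followed. Pygl read 11.80 without vehicle replicate 1, which held all of its vehicle counts, so that this value is set by the fit and is not a measured fold change. Without that library, Gpr35 read 9.41, Dpp6 9.47 and Ak4 9.84, and 2610528A11Rik 11.44, or 10.15 without vehicle replicate 3. Itm2a, a membrane protein, had 3 counts in vehicle and 160, 375 and 317 in FG-4592, a ratio of 279.2 (95% counting interval 95.2 to 1356). Tmem74b, the copper transporter Atp7b and C2cd4c had 1, 1 and 2 counts in vehicle, with ratios of 305.7 (54.5 to 12114), 298.8 (53.2 to 11842) and 265.4 (73.1 to 2197). On the fitted log2 scale Itm2a read 7.97, with 7.36 without vehicle replicate 1 and 8.86 without vehicle replicate 2. Without vehicle replicate 1, Tmem74b read 9.67 in place of 7.81 and Atp7b 9.63 in place of 7.77. That library held the only vehicle count of both, so that these values too are set by the fit.

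Among genes that are not protein-coding, Gm47593 had no count in vehicle and 2.32, 2.65 and 3.35 CPM in FG-4592, at least 169.1-fold higher. F730043M19Rik rose from 2.97, 3.77 and 1.79 to 83.3, 76.9 and 76.8 CPM (4.80 ± 0.18, adjusted p = 3.95e-12). Gm16754 had 2 counts in vehicle and 101 to 110 per treated library, and it shares exonic bases with Keap1, the sensor of oxidative stress, so that its reads may be of either gene.

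By gain in CPM, fibronectin (Fn1), a protein of the matrix, came first, from 5433, 4702 and 4994 to 12716, 12698 and 11776 CPM (1.30 ± 0.06, adjusted p = 2.06e-11). Gapdh went from 743, 748 and 786 to 7002, 7249 and 7289 CPM (3.24 ± 0.05, adjusted p = 6.3e-17), with 74 other genes holding a near-identical stretch of at least 100 bases at 98% identity. Such genes numbered 6 for Ftl1, 5 for Mif, 4 for Bnip3 and 3 for Pgk1, so that reads of the copies may be counted or lost. Per kilobase of exon, Gapdh went from 184 to 1737 CPM and Fn1 from 432 to 1061 CPM, so that on that scale Fn1 stood above Gapdh in vehicle and below it in FG-4592.

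Lysyl oxidase (Lox), which crosslinks collagen, rose from 4391, 3611 and 3832 to 8404, 11360 and 8182 CPM (1.24 ± 0.10), and thrombospondin 1 (Thbs1), an inhibitor of angiogenesis, from 1564 to 1691 to between 6376 and 6999 CPM (2.03 ± 0.06). Basigin (Bsg), the chaperone of the lactate transporters, went from 333, 373 and 390 to 4285, 4557 and 5047 CPM, 12.7-fold by the means (3.66 ± 0.07, adjusted p = 6.54e-16). The ferritin light chain Ftl1, Emp1, Ahnak, Pkm and vimentin (Vim) completed the 10. Ahnak and Vim lay near the size cutoff, and with library size alone they read 1.00 and 0.95 and did not pass it. Vim read 1.00 without FG-4592 replicate 1, just inside the cutoff.

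**Figure D3:**
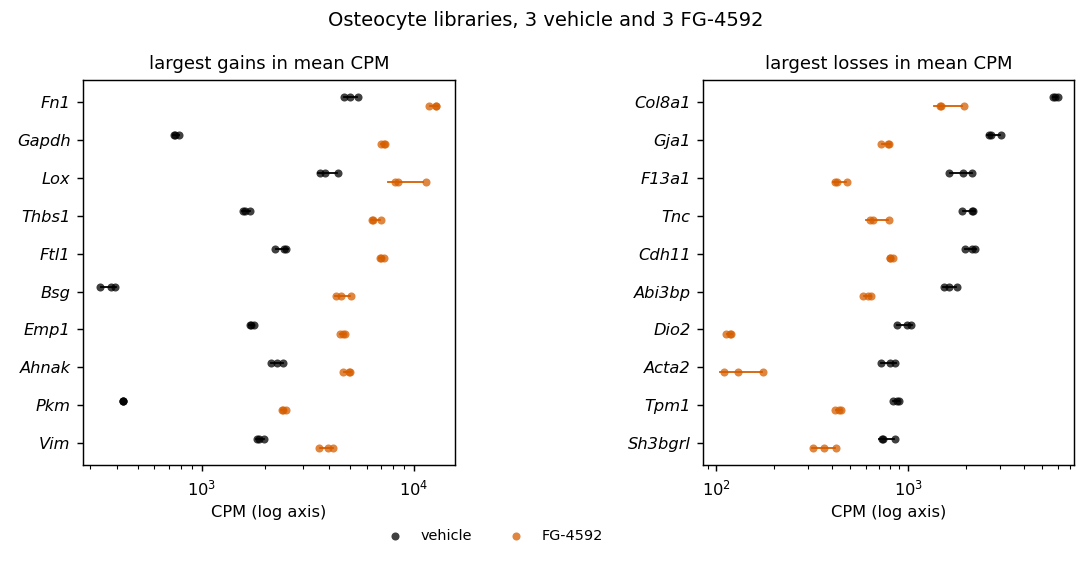
CPM on a log axis in each of the 3 vehicle (black) and 3 FG-4592 (orange) osteocyte libraries for the 10 genes with the largest gain and the 10 with the largest loss in mean CPM; lines span the mean ± SD (n = 3). The genes were chosen by their change in these same libraries. The treatments do not overlap for any of the 20, as was so for 51.8% of all genes tested. Bsg shows the largest ratio among the gains, 12.7.

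By loss in CPM, Col8a1, a short-chain network collagen, came first and fell from 6001, 5701 and 5803 to 1463, 1946 and 1483 CPM (-1.84 ± 0.09, adjusted p = 5.68e-11). Gja1 (connexin 43), whose gap junctions join osteocytes, fell from 3051, 2694 and 2631 to 787, 793 and 720 CPM (-1.86 ± 0.06, adjusted p = 1.04e-12). The transglutaminase F13a1 fell from between 1639 and 2144 to between 413 and 480 CPM, and the osteoblast cadherin Cdh11 from between 1976 and 2238 to between 803 and 836 CPM. None of these 4 genes had overlapping treatments, as was so for 25.7% of all genes in this direction.

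Tenascin C (Tnc) and Abi3bp, both matrix proteins, fell by 1.59 and 1.43. Dio2, the deiodinase that makes active thyroid hormone, fell from 1035, 870 and 983 to 113, 118 and 119 CPM (-3.05 ± 0.07, adjusted p = 5.69e-15). Smooth muscle actin (Acta2) fell from 719, 808 and 853 to 130, 176 and 110 CPM (-2.52 ± 0.12, adjusted p = 8.78e-11). Tpm1 (-1.0 ± 0.05) and Sh3bgrl (-1.08 ± 0.08) were close to the size cutoff, and Tpm1 missed it with the 6 osteocyte libraries alone, with no filter and without FG-4592 replicate 1, and Sh3bgrl without FG-4592 replicate 3.

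The 12 largest falls were taken under the same limits on counts and overlap as the rises. Inmt, an indole N-methyltransferase, fell from 4.8, 6.69 and 7.43 to 0.308, 0.245 and 0.0495 CPM (-4.95 ± 0.54, adjusted p = 3.88e-06), and Sftpa1, a collectin of lung surfactant, from 6.26 to 6.57 to between 0.185 and 0.347 CPM (-4.73 ± 0.31). Mro fell by 4.64 ± 0.37 on the log2 scale. Kctd12, an auxiliary subunit of GABA-B receptors, was the highest of the 12, at 132, 112 and 106 CPM in vehicle and 8.13, 7.98 and 9.33 CPM in FG-4592 (-3.78 ± 0.18, adjusted p = 4.74e-11), although most of its exonic bases also belong to other genes.

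Periostin (Postn), a matrix protein of periosteum, fell from 79.4, 52.3 and 76.4 to 5.19, 8.11 and 4.72 CPM (-3.53 ± 0.24, adjusted p = 5.87e-09). Nebl, Matn4, Nrg1, Tmem121b and the interferon-stimulated gene Ifi27l2a fell by 3.72, 3.71, 3.46, 3.41 and 3.18 on the log2 scale. Left out 1 at a time, FG-4592 replicate 2 gave -4.68 for Matn4, replicate 1 gave -4.51 for Nrg1 and replicate 3 gave -4.05 for Tmem121b. Under the same limits, the largest falls of genes that are not protein-coding were those of Gm34589 (-3.49 ± 0.55), Gm31520 (-3.04 ± 0.29) and Gm20619 (-2.36 ± 0.16).

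Phosphate and mineral genes were split, with 2 of 18 tested up and 6 down and a median of -0.28. Fgf23 rose at a low level, from 0.0753, 0 and 0 to 1.92, 1.29 and 1.62 CPM (5.81 ± 0.91, adjusted p = 6.68e-05). Without vehicle replicate 1, which held all of its vehicle counts, the fit read 9.62, a value with no vehicle count behind it. Phex, the endopeptidase whose loss raises FGF23, fell from 63, 50.6 and 59.2 to 2.65, 3.78 and 2.06 CPM (-4.35 ± 0.21, adjusted p = 7.98e-11). Dmp1, the matrix protein of mature osteocytes, fell by 2.44 ± 0.34.

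Ibsp, a nucleator of mineral, fell from 37.2, 35.5 and 34.1 to 7.44, 17.2 and 11.9 CPM (-1.55 ± 0.19, adjusted p = 5.91e-06). The phosphate transporter Slc20a2 fell by 1.46 ± 0.06, and the osteocalcin genes Bglap and Bglap2, which are near-identical in part, fell by 1.28 ± 0.26 and 1.43 ± 0.23. Phospho1, which frees phosphate in matrix vesicles, rose by 1.04 ± 0.19, but nearly all of its exonic bases belong also to other genes and the rise missed the size cutoff with library size alone (0.95) and without FG-4592 replicate 1 (0.99), vehicle replicate 1 (0.93) or vehicle replicate 2 (0.87). Alkaline phosphatase (Alpl) read -0.83 ± 0.10, and the pyrophosphate maker Enpp1 0.71 ± 0.08. The most abundant members showed no shift past the spread: Spp1 read -0.07 (adjusted p = 0.545) and Sparc 0.09 (adjusted p = 0.143).

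Of 14 osteoblast lineage transcription factors tested, 2 rose and none fell, against 6.25% and 4.26% of all genes tested (median -0.23). Dlx3, a homeobox factor of osteoblasts, rose from 14.3, 13.7 and 12.5 to 56.8, 59.2 and 56.9 CPM (2.10 ± 0.06, adjusted p = 2.23e-13), and Sox9, the cartilage master factor, from 46.2 to 54.8 to between 111 and 124 CPM (1.21 ± 0.07). Runx2 read -0.38 ± 0.04 and Sp7 -0.72 ± 0.05, both with adjusted p-values under 0.05 and within the size cutoff.

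Among 12 tested genes of the osteocyte network and of mechanosensing, 3 fell (Gja1, Tnc and Fbln7) and 1 rose, with a median of -0.28. The riser was Ackr3, the scavenger receptor of CXCL12, from 9.08, 8.54 and 9.81 to 31.5, 36.7 and 31.9 CPM (1.87 ± 0.11, adjusted p = 6.27e-10). Fbln7 fell by 1.07 ± 0.10.

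In the collagen list, 5 of 22 genes rose and 2 fell, with a median of 0.13, and 4 of the 5 encode enzymes. The prolyl 4-hydroxylase subunits P4ha1 and P4ha2 went from between 84.4 and 99.5 to between 476 and 495 CPM (2.43 ± 0.06) and from between 27.5 and 29.9 to between 236 and 257 CPM (3.12 ± 0.06). Lox, Loxl2 (1.12 ± 0.19) and the fibril-associated chain Col12a1 (1.21 ± 0.06) were the others. The minor fibrillar chains Col11a1 (-1.08 ± 0.13) and Col24a1 (-1.60 ± 0.58, adjusted p = 0.0344) fell, calls that were lost without FG-4592 replicate 1. Col24a1 was lost also without FG-4592 replicate 3 and without vehicle replicate 1 or 2, at adjusted p-values up to 0.108. Col1a1 and Col1a2, the chains of bone collagen, read 0.11 ± 0.09 and -0.01 ± 0.05.

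Of the cartilage list, 7 of 14 genes passed the filter. The cartilage collagen Col2a1 rose from 52.6, 72 and 63.6 to 243, 306 and 333 CPM (2.23 ± 0.13, adjusted p = 7.05e-10) and lubricin (Prg4) from between 16.3 and 18.9 to between 69.3 and 80.4 CPM (2.13 ± 0.10). The matrilins Matn3 and Matn4 fell by 3.48 ± 0.67 and 3.71 ± 0.77, Matn3 -4.45 without FG-4592 replicate 2. Of the 7 members that did not pass it, Sox6 reached 26 counts and Col9a1 15 in 1 osteocyte library each, and Acan, Hapln1, Chad, Cnmd and Snorc had at most 6 in any.

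Bone turnover and paracrine factors had 5 of 18 down, none up and a median of -0.62. The osteoclast factor Tnfsf11 (RANKL) fell by 4.10 ± 0.78 at a low level, or -4.75 without FG-4592 replicate 3, and its decoy Tnfrsf11b read 0.91 ± 0.15, past the size cutoff only without vehicle replicate 1 (1.08). The WNT antagonists Sfrp4 (from 78.5, 64.5 and 74.9 to 20, 17.3 and 10.8 CPM, -2.18 ± 0.15) and Wif1 (-1.60 ± 0.14) fell, as did the BMP antagonist Grem1 (-2.22 ± 0.36) and the monocyte chemokine Ccl2 (-2.22 ± 0.18).

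Cxcl12, the niche chemokine and the most abundant transcript of the list by CPM, went from 12483, 13841 and 13660 to 7361, 7214 and 7615 CPM (-0.85 ± 0.05, adjusted p = 3.96e-10), within the size cutoff. The growth factor Igf1 read -0.93 ± 0.06 and its binding protein Igfbp5 0.75 ± 0.05.

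In iron handling, 2 of 14 rose and 1 fell, against 6.25% and 4.26% of all genes tested, with a median of -0.02. Transferrin (Trf) rose from 4.7, 4.84 and 5.07 to 21.9, 17.9 and 18.9 CPM (2.01 ± 0.14, adjusted p = 2.61e-08) and Ftl1 by 1.56 ± 0.05, although most of the exonic bases of Trf belong also to Gm20425. The ferritin heavy chain Fth1 read 0.15 ± 0.06 (adjusted p = 0.0522) and the transferrin receptor Tfrc 0.52 ± 0.08. Steap3, a ferrireductase, fell by 1.02 ± 0.10, and that fall missed the size cutoff without vehicle replicate 1 (-0.98), FG-4592 replicate 2 (-0.97) or FG-4592 replicate 3 (-0.97).

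Of 12 NRF2 antioxidant genes 3 rose and none fell, with a median of 0.73, and 8 read higher and 1 lower at an adjusted p under 0.05, against 21.9% and 22% of all genes tested. Those that rose were heme oxygenase 1 (Hmox1), which is also a HIF target and went from 51.1, 52.9 and 55.4 to 313, 296 and 319 CPM (2.54 ± 0.06), and Gclm and Srxn1 by 1.04 and 1.03. Gclm and Srxn1 missed the size cutoff with library size alone (0.95 and 0.93) and without vehicle replicate 2 (0.98 and 0.99), and Srxn1 also without FG-4592 replicate 1 (0.98). Nqo1 read 0.80 ± 0.08 and Txnrd1 -0.01. In the unfolded protein and amino acid list, the pseudokinase Trib3 rose by 2.05 ± 0.29 and Phgdh, the first enzyme of serine synthesis, fell by 2.12 ± 0.11. The other 16 of 18 did neither, where 6.25% of all genes tested rose and 4.26% fell.

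Of 15 JmjC histone demethylases, oxygenases of the same family as the HIF hydroxylases, 3 rose and none fell, with a median of 0.36. Jmjd6 rose from 23.3, 24.7 and 22.7 to 82.9, 82.2 and 85.9 CPM (1.83 ± 0.05, adjusted p = 1.32e-13), Kdm4b by 1.54 ± 0.06 and Kdm3a by 1.39 ± 0.06. At an adjusted p under 0.05, 12 of the 15 read higher and none lower, against 21.9% and 22% of all genes tested.

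Of 17 kinetochore and mitosis genes tested, 12 fell, none rose, and the median was -1.16, and of 15 DNA replication genes 3 fell (median -0.55). Topoisomerase 2A (Top2a) went from 177, 154 and 193 to 75.6, 73.2 and 46.1 CPM (-1.43 ± 0.14, adjusted p = 3.68e-07) and the proliferation marker Mki67 from 121, 124 and 138 to 65, 63.1 and 36.8 CPM (-1.21 ± 0.15, adjusted p = 4.92e-06). FG-4592 replicate 3 was the lowest library for both. The summed mitosis level was 617 to 721 CPM in vehicle, 338 and 319 CPM in FG-4592 replicates 1 and 2 and 205 CPM in replicate 3. Without that replicate 4 of the 17 genes fell, with Mki67 at -0.995 and Ccnb1 at -0.98, just inside the size cutoff, and Cdc6 of the replication list at -0.87.

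The helicase subunits Mcm2 and Mcm5, which open DNA for replication, fell by 1.23 ± 0.11 and 1.24 ± 0.14. MPC2 cells divide at the lower temperature, and osteocyte cultures had left it before treatment.

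Of 18 interferon-stimulated genes, 12 fell and none rose, with a median of -1.46. Ifit3, an antiviral effector, went from 28.5, 37.2 and 27.9 to 7.6, 5.71 and 5.65 CPM (-2.30 ± 0.13, adjusted p = 4.43e-10) and Ifit1 from 13.5, 19.6 and 9.25 to 4.03, 2.62 and 3.04 CPM (-2.12 ± 0.23). Isg15 fell by 2.11 ± 0.24. Vehicle replicate 2 was the highest library of several members: without it Usp18 read -1.65 in place of -2.31, and Mx1 (-3.03 ± 1.01, adjusted p = 0.0229), whose treatments overlapped, read -1.38 with an adjusted p of 0.296. Mx1 was lost also without FG-4592 replicate 2 or 3 (adjusted p = 0.0753 and 0.0761), and read -4.54 without FG-4592 replicate 1.

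All 16 genes of cholesterol synthesis and uptake read lower at an adjusted p under 0.05 (22% of all genes did), with 6 past the size cutoff and a median of -0.92. The demethylase Cyp51 fell from 113, 105 and 112 to 33.1, 35 and 30.2 CPM (-1.75 ± 0.06, adjusted p = 1.6e-12), Idi1 by 1.71 ± 0.12, Dhcr7, which acts at the end of the pathway, by 1.62 ± 0.10 and Hmgcs1 by 1.24 ± 0.06. With library size alone as the scaling, 10 of the 16 passed the size cutoff. Of the 7 adipocyte markers tested, 2 read higher and none lower at an adjusted p under 0.05, from Fabp4 at 1.19 to the lowest at -0.11.

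Contractile genes and targets of serum response factor fell in 6 of 13, with none up and a median of -0.93. Besides Acta2 and Tpm1, the light chain Myl9 went from 101, 127 and 131 to 21.2, 25.1 and 16.4 CPM (-2.52 ± 0.12) and the enteric actin Actg2 from 41.2, 35 and 47.4 to 8.93, 11.8 and 7.49 CPM (-2.13 ± 0.14). Transgelin (Tagln) fell by 3.06 ± 0.23, though most of its exonic bases are shared with other genes. Ccn2, another target of the same factor, read -0.20 (adjusted p = 0.0528) with overlapping treatments.

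Set against undifferentiated MSCs, 649 genes (3.94%) had a higher log2 fold change in osteocytes and 177 (1.07%) a lower one, 826 in all (5.01%), by the interaction test at the same cutoffs. Under the limits used for the largest rises, the 5 largest positive differences were of genes whose means lay below 1 CPM in both MSC groups. Megf6, a protein with EGF repeats, went from 0.196, 0.252 and 0.423 to 52.2, 48.2 and 60.3 CPM in osteocytes and from a mean of 0.357 to 0.637 CPM in MSCs, a difference of 6.72 ± 0.54 (adjusted p = 2.56e-07), or 6.05 without MSC vehicle replicate 3.

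C2cd4c differed by 7.88 ± 1.13, Itm2a by 6.83 ± 0.96 (6.20 and 7.70 without osteocyte vehicle replicates 1 and 2), Aspg by 6.29 ± 1.57 and Hcar2 by 6.08 ± 1.85. The last pair rested on MSC vehicle replicate 3, which held all of their vehicle counts in MSCs, 6 and 4: without it the differences were 2.14 (adjusted p = 0.891) and 2.48 (adjusted p = 1). For Fgf23, with a difference of 5.74 ± 1.46 (adjusted p = 0.00888), leaving out the same library gave 3.42 (adjusted p = 0.402). 

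Among negative differences, Ndrg2, a stress-responsive relative of Ndrg1, rose in both cell types but less in osteocytes, from 7.33, 9.78 and 9.48 to 26.7, 30.7 and 30.5 CPM (1.73 ± 0.13) against 4.94 in MSCs, a difference of -3.21 ± 0.23. Ccl7, a chemokine, fell in osteocytes by 3.06 ± 0.21 and read -0.46 in MSCs (difference -2.59 ± 0.27). Slc35g1 and Phex differed by -3.14 ± 0.56 and -2.81 ± 0.46, Phex by -2.11 without MSC FG-4592 replicate 1. Elastin (Eln) fell in osteocytes from 33.9, 27.7 and 23.5 to 2.99, 4.38 and 2.51 CPM (-3.11 ± 0.49), a call lost with DESeq2 (adjusted p = 0.0915), and its difference of -6.72 ± 1.37 rested on MSC FG-4592 replicate 2, which held 83 Eln counts against 1 and 0 in the other two and without which it was -1.29 (adjusted p = 0.805).

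By list, the cholesterol genes held the most differences, 9 of 16, all with the lower log2 fold change in osteocytes. Cyp51 stood at a mean of 162 CPM in vehicle-treated and 168 CPM in FG-4592-treated MSCs, a log2 fold change of 0.05 there, and differed by -1.80 ± 0.09 (adjusted p = 6.68e-10). Idi1 differed by -1.88 ± 0.16 and Hmgcs1 by -1.32 ± 0.09. The list median was -0.92 in osteocytes and 0.18 in MSCs.

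The angiogenic list held 5 of 15 differences, all with the higher log2 fold change in osteocytes. Pgf rose in osteocytes and read -0.56 in MSCs, a difference of 2.36 ± 0.15 (adjusted p = 2.64e-08), Apln differed by 1.76 ± 0.12, Thbs1 by 1.53 ± 0.08 and Vegfa by 1.47 ± 0.09. For glycolysis, 2 of 18 differed, Hk2 by -1.67 ± 0.12 and Eno2 by -1.16 ± 0.24, and the list medians were 2.69 in both cell types. In the mitosis, replication, interferon, JmjC and osteoblast factor lists no member differed past the cutoffs, a count that does not show the responses to be equal.

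**Figure D4:**
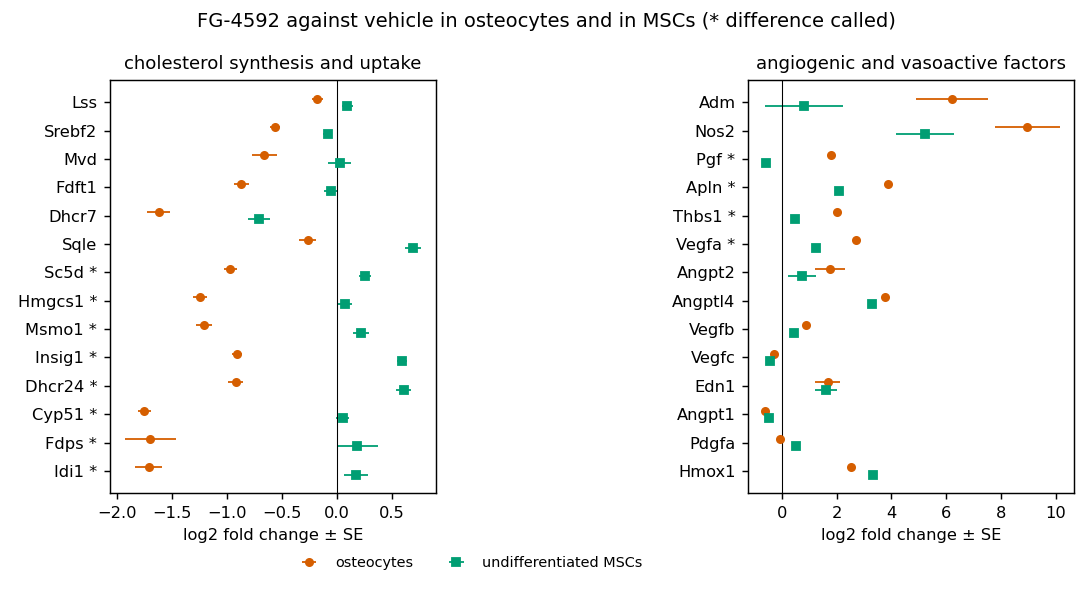
Log2 fold changes of FG-4592 against vehicle with the SE of the fit, in osteocytes (orange circles) and undifferentiated MSCs (green squares), for 14 members each of the cholesterol and the angiogenic list; an asterisk marks genes whose difference passed both cutoffs. The 8 marked cholesterol genes lie lower in osteocytes, Cyp51 at -1.75 against 0.05, and the 4 marked angiogenic genes lie higher, Pgf at 1.80 against -0.56.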

How the data were processed

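RNAseq (mRNA libraries, paired reads of 100 bases) was done by the authors on 12 libraries, 3 in each of 4 groups set by the cell type and treatment in the labels. The authors mapped the reads to mm10 with STAR 2.7.2a and deposited raw counts per Gencode gene from featureCounts (Subread 1.6.2), counting a pair for each gene it overlaps and without strand, so overlapping and antisense genes share reads. The 12 deposited count columns were all used.

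From the counts, genes whose count passed 10 in 3 or more libraries were fitted in edgeR 4.0.16 (R 4.3.3) with TMM, 1 coefficient for each group and the quasi-likelihood test. The osteocyte comparison and the interaction with MSCs were called where the log2 fold change passed 1 in size with a Benjamini-Hochberg FDR under 0.05. Osteocyte depth was 54328728 to 68108470 counts, which puts the limit of a 0 count, 3 counts, near 0.05 CPM. Tested on simulated data of 16030 genes with 200 changed, the fit recovered 196 in osteocytes with 4 false calls, and 182 in the interaction with 2. The changes were placed only in well-counted genes and above the size cutoff, in a smaller share of genes than was called here. The recovery therefore does not carry over to genes at low counts or near the cutoff.

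Genes named were the 12 largest rises and 12 largest falls among called genes with at least 100 mean counts in the higher group and no overlap, the 10 largest gains and losses in CPM, the 3 largest noncoding rises and falls, the 5 largest response differences in each direction, and members of 26 lists (20 of pathways, 6 of markers). The comparison, the members and the lists were chosen with earlier results of these data known. Lists are described by counts and medians, without a set test. Some members of the lists are counted but not reported by name here.

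Promoter windows came from RefSeq. They covered 66.3% of the genes tested and 58.0% of those that rose, so motif shares are given without a comparison. Alternatives were DESeq2 1.42.0, RLE factors, library size alone, filterByExpr, no filter, the 6 osteocyte libraries alone, a replicate block, no genes sharing exonic bases (GenomicRanges 1.54.1), each library left out and, added after the data were seen, no processed pseudogenes. Pseudogene matches used blastn 2.17.0 and figures matplotlib 3.10.9.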

Additional observations from a re-analysis of the deposited data

Results flagged for a closer look

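Each result here is a difference between cell types, the log2 fold change in osteocytes minus that in MSCs, past an absolute value of 1 and an adjusted p of 0.05 in the interaction test of edgeR. Groups of 3 libraries are too small for a test of outlying libraries. No cause was tested for any of them, and temperature, medium and differentiation cannot be told apart.

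The log2 fold change was higher in osteocytes for C2cd4c (7.88), Itm2a (6.83), Megf6 (6.72), Aspg (6.29), Hcar2 (6.08), Fgf23 (5.74), 2610528A11Rik (3.49), F730043M19Rik (3.01), Ibsp (2.57) and Pgf (2.36). Ibsp fell in both cell types, by 1.55 in osteocytes and 4.12 in MSCs on the log2 scale, so that its positive difference is a smaller fall. Alpl read -0.83 and fell by 1.99 in MSCs, and Adipoq read -0.10 and fell by 1.44 there. Smaller positive differences were those of Apln (1.76), Cited2 (1.63), Thbs1 (1.53), Col2a1 (1.48), Vegfa (1.47), Ankrd37 (1.46), Prg4 (1.42), Adipoq (1.34), Bsg (1.24), Alpl (1.16), Tnfrsf11b (1.12) and Fabp4 (1.04).

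The log2 fold change was lower in osteocytes for Eln (-6.72), Ndrg2 (-3.21), Slc35g1 (-3.14), Phex (-2.81), Ccl7 (-2.59), Arnt2 (-2.27), Tfrc (-2.06), Postn (-2.01), Ccl2 (-1.94), Tagln (-1.89), Idi1 (-1.88), Cyp51 (-1.80), Sfrp4 (-1.73), Plod2 (-1.68), Hk2 (-1.67), F13a1 (-1.57), Phgdh (-1.54), Pfkfb3 (-1.47), Kctd12 (-1.41), Slc20a2 (-1.34), Hmgcs1 (-1.32), Trib3 (-1.24), Eno2 (-1.16) and Gclm (-1.11). Plod2, a lysyl hydroxylase of collagen, rose by 1.83 in MSCs and read 0.14 in osteocytes, where its vehicle level was already 834 to 862 CPM against a mean of 103 CPM in vehicle-treated MSCs.

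Leaving out 1 library ended the call for Aspg, Hcar2 and Fgf23 (MSC vehicle replicate 3), Hcar2 also for MSC FG-4592 replicate 2 (adjusted p = 0.0508), Eln (MSC FG-4592 replicate 2) and Kctd12 (MSC FG-4592 replicate 3, -0.92). It did so for Tnfrsf11b without MSC vehicle replicate 1 (0.93) or osteocyte vehicle replicate 2 (0.95), and for Trib3 without any of 7 libraries, with adjusted p-values up to 0.113. Other moves over 1.5-fold with 1 library left out were those of Aspg to 8.13 (MSC FG-4592 replicate 3), Eln to -8.50 (MSC vehicle replicate 3), Fgf23 to 9.52 and 5.14 (osteocyte vehicle replicates 1 and 3), 2610528A11Rik to 2.89 (MSC vehicle replicate 1), 4.16 and 2.87 (osteocyte vehicle replicates 1 and 3), Itm2a to 6.20 and 7.70 (osteocyte vehicle replicates 1 and 2), Megf6 to 6.05 (MSC vehicle replicate 3) and Phex to -2.11 (MSC FG-4592 replicate 1), with no call lost. The Fgf23 value of 9.52 has no osteocyte vehicle count behind it and is set by the fit. Fabp4 lay at the size cutoff, reading 0.86 at its lowest over the alternatives, and missed it under 7 of them.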

How the results depend on the processing

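Of 143 named genes called in osteocytes, 125 kept their call under all 15 alternatives that could be run on them, 18 lost it in at least 1, and none turned direction. Another 2, Tnfrsf11b and Igf1, gained one. With genes of shared exonic bases removed, a smaller table, 680 genes rose in osteocytes and 404 had a higher log2 fold change there than in MSCs. In the lists the same setting tested fewer members and left 4 of 7 HIF regulators, 7 of 11 other HIF targets, 8 of 9 glycolysis, 1 of 11 mineral, 3 of 16 collagen, 1 of 3 cartilage and 0 of 8 iron genes up, and 0 of 7 HIF regulators, 1 of 3 cartilage and 2 of 9 cholesterol genes down. With library size alone, which moved the median of all genes by -0.098, 0 respiration, 1 mineral and 1 NRF2 gene rose, and 1 osteoblast factor and 10 cholesterol genes fell. With no filter on low counts 2 respiration genes rose. The lowest and highest counts with 1 library left out were 1 and 2 for respiration up, 1 and 3 for mineral up, 0 and 1 for osteoblast factors down, 0 and 3 for collagens down, 0 and 1 for bone turnover up, 0 and 1 for iron down, 1 and 2 for unfolded protein up, 1 and 4 for NRF2 up, 4 and 15 for mitosis down and 1 and 2 for chondrocyte markers up. With 1 library left out, the whole-genome counts ranged from 943 to 1056 up and 600 to 711 down in osteocytes. Causes beyond fewer genes or libraries were not tested.

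Same-numbered libraries of the 2 osteocyte groups deviated with correlations of 0.041, -0.042 and 0.031, and vehicle replicates 1 and 2 correlated best with another number (0.048 and 0.065). These values show no sign of pairing by replicate number. They cannot exclude it, because each deviation is taken from a mean of only 3 libraries. With the replicate number as a block, 1015 genes rose and 666 fell, 607 and 167 differed between the cell types, 1 collagen gene fell and 2 chondrocyte markers rose. Col24a1 (adjusted p = 0.0506) and Mx1 (adjusted p = 0.106) lost their calls under it. With ACGTG alone, a narrower motif, 27.5% of the windows of genes that rose and 18.3% of those that fell held a match, and 25.2% of all windows did. Among protein-coding genes 61.0% and 52.9% held either form, and 62.8% of all those tested with a window did. These shares too are given without a comparison.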
